A study of Homo sapiens with 6 samples.

Results

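The 10 genes described here encode secreted chemokines and inflammatory cytokines. They are the neutrophil chemokines CXCL1, CXCL2, CXCL3, CXCL5 and CXCL8, the monocyte chemokine CCL2, and the cytokines IL6, IL11, LIF and IL1B. They were taken by symbol from the count table, where all 10 were found among 58735 gene rows. The filter on low counts passed 4 of them (IL11, LIF, IL1B and CXCL5) and 13772 genes in all. The RNA was from the human ovarian cancer line Ovcar8, which is long established and in wide use as a model of high-grade serous carcinoma. Serum-starved cells had been kept for 48 h without fetal bovine serum (FBS), and FBS cells for the same time in RPMI-1640 with 5% FBS. Each group had 3 libraries. Both groups were the same unmodified line by their labels, and no other agent is named. Separate cultures are not stated for them, so p-values here gauge library-to-library spread, which may be technical.

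In serum-starved cells, the fitted level of IL11 was 1.93-fold lower, that of CXCL5 7.82-fold lower and that of IL1B 2.08-fold higher. Groups did not overlap for any of these genes, as for 17.7% of all genes tested (10% higher and 7.65% lower in serum-starved cells). CXCL5 passed the filter on low counts only through its FBS libraries. None of the 10 genes passed the test across all genes. For LIF the libraries of the groups overlapped. The other genes were at the edge of detection: CXCL1, CXCL2, CXCL3, CXCL8 and IL6 had at most 28 counts in any library, and CCL2 had none.

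Chemokines are small secreted proteins that steer leukocytes through G protein-coupled receptors. CXCL1, CXCL2, CXCL3, CXCL5 and CXCL8 act mainly on CXCR2, and CXCL8 also on CXCR1, whereas CCL2 acts on CCR2. IL-6, IL-11 and LIF each bind a receptor of their own together with the shared chain gp130, encoded by IL6ST, and signal through JAK kinases and STAT3. IL-1β is made as a precursor that is cut by caspase-1 in the inflammasome, and it activates the transcription factor NF-κB, which in turn drives many chemokine genes. In ovarian carcinoma, IL-6 and CXCL8 are known as products of the tumour cells themselves.

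The 5 CXCL genes lie in 1 cluster of chromosome 4, within 358.8 kb from 73740506 to 74099293 (GRCh38), which holds 9 protein-coding genes. The 4 other genes of the cluster, CXCL6, PF4V1, PF4 and PPBP, had at most 2 counts in any library. Promoter sequences, from RefSeq on GRCh38.p14, were at hand for 8 of the 10 genes. The 150 bases before the start of each were searched on both strands for GGANTTTCC, a form of the NF-κB site. It was present in 6 of these 8 windows, against 330 of all 35116 windows of that length (0.94%). Other forms of the NF-κB site were not searched, so these shares describe this pattern only and are no test of enrichment. The AP-1 site TGANTCA was present in 2 of the 8, CXCL8 and IL11, and in 4.17% of all windows. The C/EBP pattern TTGCNNAA was present in none of the 8 and in 5.02% of all windows. Near matches were not counted, and the CXCL8 window holds one that differs in its last base. Other forms of the C/EBP site could thus be missed. A match describes letters only and shows no binding. The 6 windows with an NF-κB match are shown first, and that of IL11, the most abundant of the 10 genes, last; capitals mark NF-κB and AP-1 matches.
CXCL1: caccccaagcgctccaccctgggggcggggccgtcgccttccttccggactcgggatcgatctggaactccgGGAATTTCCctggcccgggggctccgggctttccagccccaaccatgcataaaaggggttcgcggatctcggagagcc
CXCL2: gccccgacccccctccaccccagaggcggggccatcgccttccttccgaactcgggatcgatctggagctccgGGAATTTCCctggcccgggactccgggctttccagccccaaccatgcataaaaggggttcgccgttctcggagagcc
CXCL3: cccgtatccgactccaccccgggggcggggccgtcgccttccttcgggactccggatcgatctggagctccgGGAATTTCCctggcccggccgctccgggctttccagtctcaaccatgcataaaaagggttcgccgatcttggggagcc
CXCL5: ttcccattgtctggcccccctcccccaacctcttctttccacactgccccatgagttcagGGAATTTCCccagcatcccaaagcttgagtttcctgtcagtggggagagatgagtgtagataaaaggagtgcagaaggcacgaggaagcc
CXCL8: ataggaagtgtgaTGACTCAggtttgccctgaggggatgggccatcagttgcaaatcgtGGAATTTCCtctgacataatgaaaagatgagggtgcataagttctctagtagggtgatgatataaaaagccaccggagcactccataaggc
IL6: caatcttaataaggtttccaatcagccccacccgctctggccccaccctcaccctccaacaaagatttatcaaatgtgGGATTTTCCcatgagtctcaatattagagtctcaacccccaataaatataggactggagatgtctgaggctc
IL11: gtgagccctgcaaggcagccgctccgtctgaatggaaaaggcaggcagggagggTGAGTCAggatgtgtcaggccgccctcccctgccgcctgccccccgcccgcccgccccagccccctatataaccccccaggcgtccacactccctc
The windows of CXCL1 (chr4:73869243-73869392), CXCL8 (chr4:73740419-73740568) and IL6 (chr7:22727050-22727199) are on the plus strand. Those of CXCL2 (chr4:74099196-74099345), CXCL3 (chr4:74038690-74038839), CXCL5 (chr4:73998678-73998827) and IL11 (chr19:55370464-55370613) are on the minus strand. Counted back from the transcription start, the NF-κB match lay at -78 to -70 in CXCL1 and CXCL3, at -77 to -69 in CXCL2, at -90 to -82 in CXCL5, at -91 to -83 in CXCL8 and at -72 to -64 in IL6. CXCL1, CXCL2 and CXCL3 are close paralogs and shared an identical stretch of 23 bases around it:
CXCL1, CXCL2 and CXCL3: ctccgGGAATTTCCctggcccgg
The matches in these 3 paralogs are not independent of each other. The window of IL1B held none of the 3 motifs.

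Close paralogs can also split reads. Of all 75-base stretches in the GENCODE transcripts, 7.07% of those of CXCL2, 4.57% of CXCL3 and 0.245% of CXCL1 occurred in another CXCL gene as well. For CXCL5 the share was 0.122%, and it was shared with GLYR1, which is not one of the 10 genes. The value was 0 for the other 6 genes. Exons of an antisense gene covered 20.7% of the exon bases of IL6. That gene, AC073072.1, had 11, 1 and 0 counts in serum-starved replicates 1 to 3 and 3, 6 and 0 in FBS replicates 1 to 3. Whether counting used strand is not given in the sources used here, so reads over that overlap are uncertain for IL6. Exons of STEAP1B, with 143 to 347 counts per library, covered a further 2.22% on the antisense side. For LIF, which is uncertain in the same way, LIF-AS1 covered 2.32% of exon bases with at most 8 counts per library, and AC004264.1 covered 4.41% with at most 1 count. A further feature of these transcripts is the AU-rich element, which marks short-lived mRNAs. Its nonamer TTATTTATT was present in the longest coding transcript of 7 of the 10 genes (6 times in IL11, 5 in CXCL2, 3 in CXCL1, 2 in IL1B and in LIF, and once in CXCL3 and in CXCL8). Of 12215 coding genes whose longest coding transcript was of similar length, 741 to 3969 bases, 4.87% held it. The whole transcript was searched, with no limit to its untranslated parts. CXCL5, IL6 and CCL2 lacked the nonamer but held the shorter pattern ATTTA, with 11, 6 and 1 matches. The share of all genes with ATTTA was not counted.

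The libraries held 17288356, 18201183 and 19558484 counts in serum-starved replicates 1 to 3 and 17882533, 17292872 and 16379416 in FBS replicates 1 to 3. A count of 0 allows up to 3 counts, which is 0.153 to 0.183 CPM (counts scaled to library depth) on plain totals; the CPM of genes below use TMM-scaled totals. Such limits and the intervals on summed counts cover counting error only. The epithelial label was checked on 12 markers. Of these, 8 were tested and 3 had no count in any library, among them MUC16, which encodes CA-125. The keratin gene KRT8 averaged 6090 CPM in serum-starved and 6130 CPM in FBS cells. PAX8, a transcription factor of Müllerian epithelium, averaged 78.7 CPM in serum-starved and 64.3 CPM in FBS cells. The 12 leukocyte markers, from cells that also make these cytokines, summed to 2.31 to 4.01 CPM in serum-starved and 2.62 to 4.03 CPM in FBS libraries. TYROBP, AIF1, S100A8 and S100A9 were at 0 throughout, and PTPRC had 2 counts in FBS replicate 3 and none elsewhere. Markers of fibroblasts (10 genes) summed to 804 to 867 CPM in serum-starved and 334 to 600 CPM in FBS libraries, nearly all from COL1A1, with COL1A2, DCN and FAP at 0. The 6 endothelial markers summed to 1.98 to 4.55 CPM in serum-starved and 0.845 to 1.17 CPM in FBS libraries, the most in serum-starved libraries from VWF. The part of these markers in the results was not tested. The libraries also differed in how genes of low and high GC content were represented. For the 858 tested genes with 35 to 40% transcript GC, the median log2 deviation from the mean of the 6 libraries was -0.63, -0.28 and 0.24 in serum-starved replicates 1 to 3, and 0.76, -0.0033 and 0.02 in FBS replicates 1 to 3.

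Per gene length, IL11 and LIF stood above the other genes. In FPKM, the authors' unit scaled to gene length and library depth, IL11 averaged 3.602 ± 0.380 in serum-starved and 6.93 ± 0.533 in FBS cells (SD, n = 3 each), and LIF averaged 2.56 ± 0.711 in serum-starved and 2.15 ± 0.775 in FBS cells. IL1B followed at 0.718 ± 0.201 in serum-starved and 0.344 ± 0.0968 in FBS cells. CXCL5 was at 0.110 ± 0.0502 in serum-starved and 0.879 ± 0.431 in FBS cells. In FBS cells the FPKM of CXCL5, at 0.502 to 1.35, lay above that of IL1B, at 0.265 to 0.452. In serum-starved cells the order was turned, with IL1B at 0.581 to 0.948 and CXCL5 at 0.0786 to 0.168. CXCL2, CXCL1 and IL6 came next, with FPKM over all 6 libraries averaging 0.329, 0.306 and 0.246. Their ranges overlapped in each group, so their order is not set. CXCL8 and CXCL3 averaged 0.0713 and 0.0506.

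**Figure D1:**
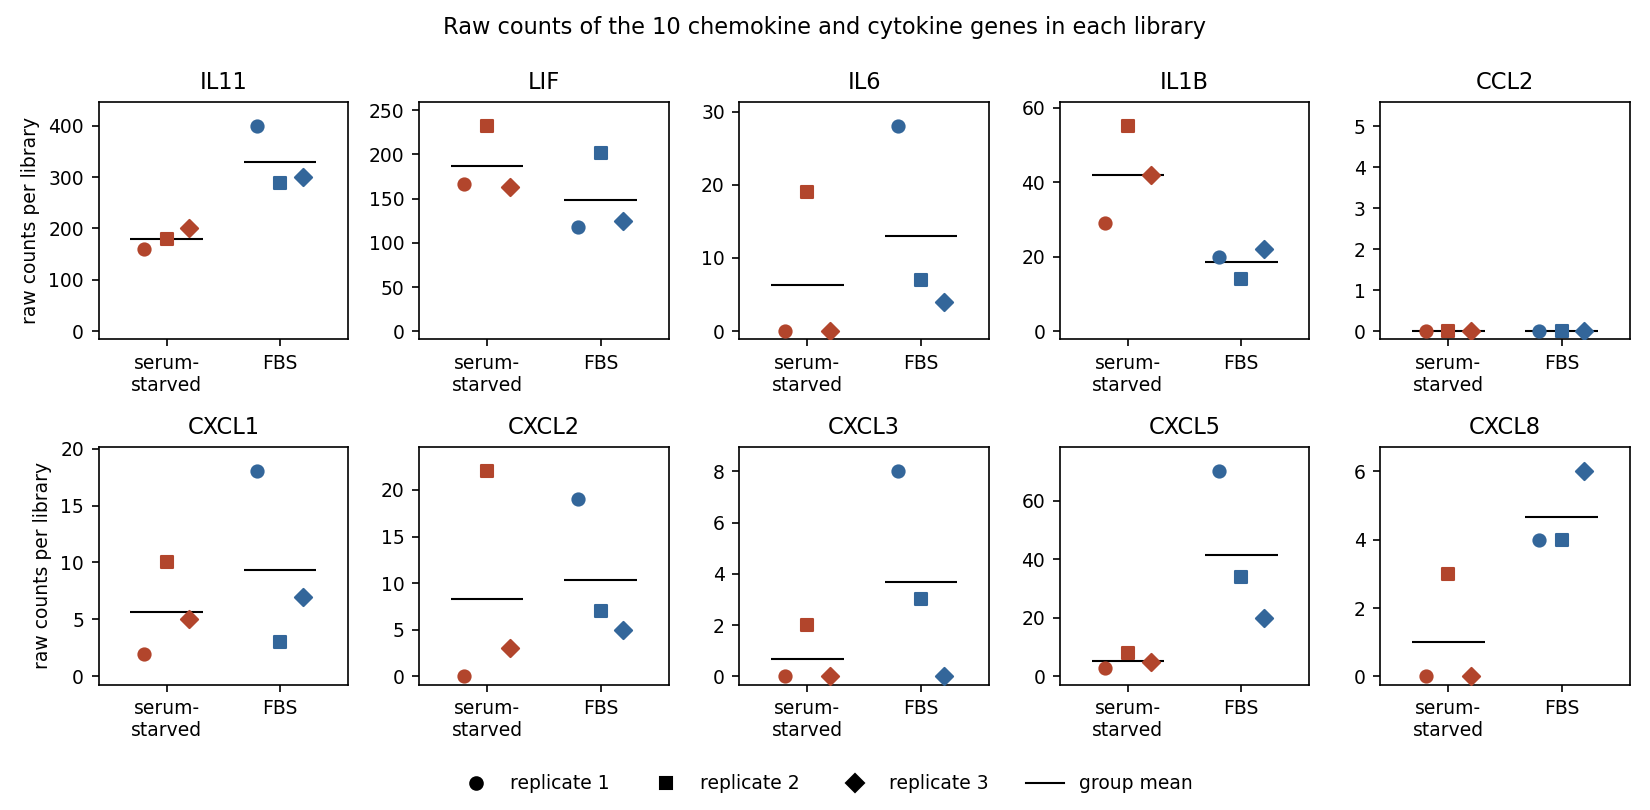
Raw counts per library (y axis, linear, with its own scale in each panel) for each of the 10 genes in serum-starved and FBS cells; symbols mark replicate numbers and the line is the group mean. IL11, CXCL5 and IL1B separate by group, whereas IL6 and CXCL2 are carried in serum-starved cells by replicate 2 (19 and 22 counts).

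IL-11 is a gp130 cytokine of stromal and epithelial cells. Its gene (ENSG00000095752, chromosome 19, 55364389 to 55370463) had 160, 180 and 201 counts in serum-starved replicates 1 to 3 and 399, 288 and 301 counts in FBS replicates 1 to 3. All 3 serum-starved libraries were below all 3 FBS libraries, also after scaling, at 10.9, 9.88 and 8.85 CPM in serum-starved against 20.3, 17.2 and 19.6 CPM in FBS replicates 1 to 3. The fitted level was 1.93-fold lower in serum-starved cells, with a 95% interval of 1.19-fold to 3.11-fold. This log2 fold change of -0.95 (SE 0.33) did not pass across all genes (edgeR quasi-likelihood test with Benjamini-Hochberg adjustment, adjusted p = 0.326, unadjusted p = 0.0103). Its transcripts have a GC content of 62.4%, and with a correction for GC and length the log2 fold change was -0.93 (edgeR adjusted p = 0.12). In bulk RNA, fewer cells that express a gene and less RNA per cell cannot be told apart.

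LIF, the leukaemia inhibitory factor, is the other gp130 ligand among the 10 genes with a clear signal. Its gene (ENSG00000128342, chromosome 22, 30240447 to 30246851) had 167, 232 and 163 counts in serum-starved replicates 1 to 3 and 118, 202 and 125 in FBS replicates 1 to 3. The groups overlapped, and the spread inside each was wider than the difference between their means, which were 10.4 ± 2.89 CPM in serum-starved and 8.72 ± 3.06 CPM in FBS cells (SD, n = 3 each). The log2 fold change was 0.26 (SE 0.40), with a 95% interval of -0.58 to 1.09 (edgeR adjusted p = 0.874). As a fold, the interval runs from 0.671 to 2.13.

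IL6 (ENSG00000136244, chromosome 7, 22725884 to 22732002), which encodes the gp130 cytokine of the acute phase response, was far lower than IL11 and LIF. It had 0, 19 and 0 counts in serum-starved replicates 1 to 3 and 28, 7 and 4 counts in FBS replicates 1 to 3. Replicate 2 alone carried the serum-starved signal, at 1.04 CPM, within the FBS range of 0.260 to 1.42 CPM. Summed counts per total gave a ratio of 0.456 of serum-starved to FBS cells, and its exact binomial 95% bounds were 0.249 and 0.809. These bounds ignore the spread between libraries, and the ratio was 0 with serum-starved replicate 2 left out, 0.708 with serum-starved replicate 3 left out and 1.06 with FBS replicate 1 left out.

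IL1B (ENSG00000125538, chromosome 2, 112829751 to 112836903) encodes IL-1β, an inducer of the other genes described here. It had 29, 55 and 42 counts in serum-starved replicates 1 to 3 and 20, 14 and 22 counts in FBS replicates 1 to 3. The serum-starved libraries, at 1.97, 3.02 and 1.85 CPM, were all above the FBS libraries, at 1.02, 0.834 and 1.43 CPM. It was the only tested gene of the 10 whose groups separated in the upward direction. The fitted level was 2.08-fold higher in serum-starved cells, with a 95% interval of 0.856-fold to 5.06-fold (log2 fold change 1.06, SE 0.61, edgeR adjusted p = 0.569). IL1A, which encodes the related IL-1α, had at most 3 counts in any library.

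Among the chemokines, CXCL5 had the clearest signal. CXCL5 (ENSG00000163735, chromosome 4, 73995642 to 73998779), also called ENA-78, had 3, 8 and 5 counts in serum-starved replicates 1 to 3 and 70, 34 and 20 counts in FBS replicates 1 to 3. The highest serum-starved library, at 0.44 CPM, lay below the lowest FBS library, at 1.30 CPM. The fitted level was 7.82-fold lower in serum-starved cells, with a 95% interval of 2.54-fold to 24.0-fold. The log2 fold change of -2.97 (SE 0.77) did not pass across all genes (edgeR adjusted p = 0.163, unadjusted p = 0.00121), but it passed in DESeq2 (log2 fold change -2.99, adjusted p = 0.0201). CXCL5 cleared the low-count filter only through its FBS libraries, so it could enter the test only by being higher there. Its transcripts have a GC content of 37.6%, and the 858 tested genes at 35 to 40% had a median log2 fold change of -0.53. Corrected for GC and length, CXCL5 had a log2 fold change of -2.09 (edgeR adjusted p = 0.15). Without FBS replicate 1, its highest library, the log2 fold change was -2.51.

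**Figure D2:**
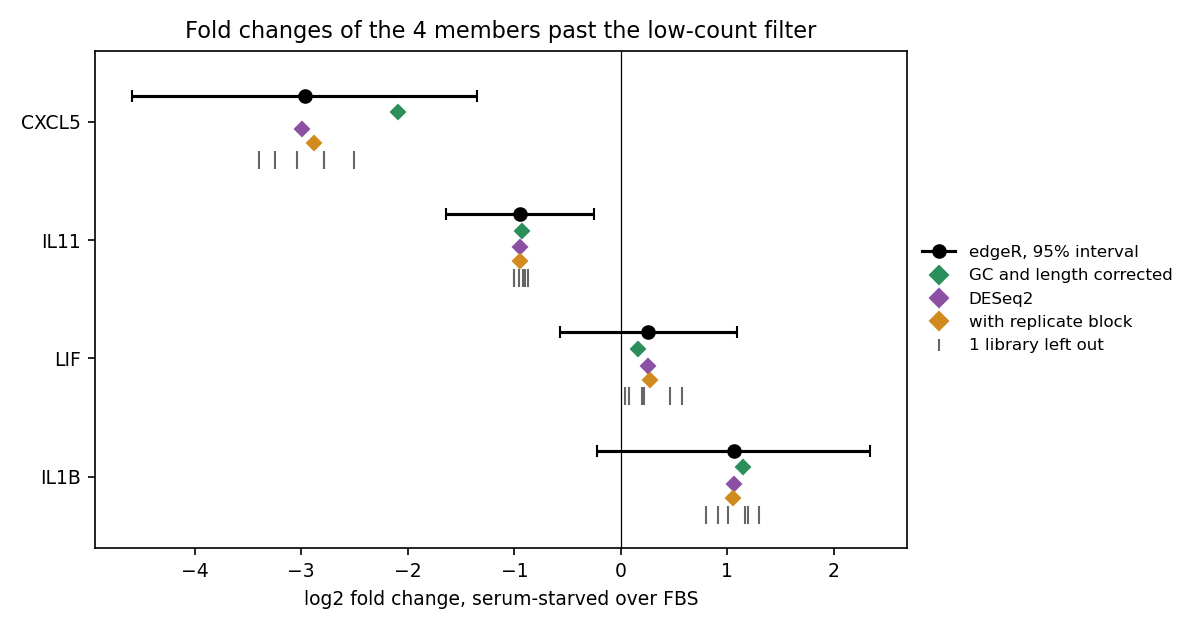
Log2 fold change (x axis, serum-starved over FBS) of the 4 genes past the filter: the black point and bar are the edgeR estimate and its 95% interval, diamonds are the GC and length correction, DESeq2 and a replicate block, and ticks are fits with 1 library left out. CXCL5 and IL11 stay below 0 and IL1B above 0 in each fit drawn, and CXCL5 moves to -2.09 with the GC and length correction.

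CXCL8 (ENSG00000169429, chromosome 4, 73740506 to 73743716), also called interleukin-8, had 0, 3 and 0 counts in serum-starved replicates 1 to 3 and 4, 4 and 6 counts in FBS replicates 1 to 3. The groups did not overlap, but on so few counts the ratio per total was 0.201, with an exact binomial 95% interval of 0.037 to 0.719. It became 0 with serum-starved replicate 2 left out and 0.311 with serum-starved replicate 3 left out. CXCL1 (ENSG00000163739, chromosome 4, 73869393 to 73871242), known as GRO-alpha, had 2, 10 and 5 counts in serum-starved replicates 1 to 3 and 18, 3 and 7 in FBS replicates 1 to 3. Its groups overlapped, and its ratio of 0.569 had an interval of 0.292 to 1.08 and became 1.04 with FBS replicate 1 left out and 0.350 with serum-starved replicate 2 left out. CXCL2 (ENSG00000081041, chromosome 4, 74097035 to 74099293), known as GRO-beta, had 0, 22 and 3 counts in serum-starved replicates 1 to 3 and 19, 7 and 5 in FBS replicates 1 to 3. Its ratio of 0.755 (interval 0.428 to 1.32) became 0.135 without serum-starved replicate 2 and 1.27 without FBS replicate 1. CXCL3 (ENSG00000163734, chromosome 4, 74036589 to 74038807), known as GRO-gamma, had 0, 2 and 0 counts in serum-starved replicates 1 to 3 and 8, 3 and 0 in FBS replicates 1 to 3, a ratio of 0.17 (interval 0.0183 to 0.78). This ratio became 0 with serum-starved replicate 2 left out, 0.264 with serum-starved replicate 3 left out and 0.408 with FBS replicate 1 left out. CCL2 (ENSG00000108691, chromosome 17, 34255218 to 34257203) had 0 counts in all 6 libraries, so no difference was detectable at this depth. In an edgeR fit without the filter, the unadjusted p of CXCL1, CXCL2, CXCL3, CXCL8 and IL6 lay between 0.32 and 0.774.

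None of the 10 genes passed edgeR across all genes, where 39 of 13772 genes (0.283%) passed, 0.24% higher and 0.0436% lower in serum-starved cells. At an unadjusted p under 0.05 there were 2 of the 4 tested, IL11 and CXCL5, both lower, against 10.4% of all tested genes in either direction and 4.37% lower. DESeq2 called 1 of the 4, CXCL5, against 1.23% of the genes it gave an adjusted p in either direction and 0.324% lower; no other tool or setting called any. The groups did not overlap in 3 of the 4, 1 higher and 2 lower in serum-starved cells, against 17.7% of all genes tested (10% higher and 7.65% lower). As CXCL5 entered only through its FBS libraries, these counts describe the 4 genes and support nothing further. The median log2 fold change was -0.34 over the 4 and -0.02 over all genes tested.

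For the 5 genes that were detected but stayed below the filter, single libraries held much of the signal. Their counts summed to 2, 56 and 8 in serum-starved replicates 1 to 3 and to 77, 24 and 22 in FBS replicates 1 to 3. In all 5, serum-starved replicate 2 was the highest serum-starved library, and 4 of the 5 had 0 counts in serum-starved replicate 1. FBS replicate 1 was the highest of all 6 libraries for CXCL1, CXCL3 and IL6, serum-starved replicate 2 for CXCL2, and FBS replicate 3 for CXCL8, whose groups did not overlap. The libraries also differed in how many genes were detected at all. Of 58735 gene rows, 15986, 18651 and 16442 had a count in serum-starved replicates 1 to 3. In FBS replicates 1 to 3 these numbers were 19583, 18790 and 17007. The part of this difference in the zeros of the 5 genes was not tested. IL12A and BIRC3, outside the 10, had most of their counts in 1 or 2 libraries. They were picked after their values were seen, and how common this is among genes of low counts was not counted. IL12A, a subunit of interleukin-12, had 0, 14 and 0 counts in serum-starved replicates 1 to 3 and 27, 2 and 4 in FBS replicates 1 to 3. BIRC3, an inhibitor of apoptosis induced by NF-κB, had 29 counts in FBS replicate 1 and at most 1 elsewhere. The libraries differed in GC as well. Serum-starved replicate 1 had the lowest and FBS replicate 1 the highest representation of genes at 35 to 40% GC, at -0.63 and 0.76 on the log2 scale. Between them lay serum-starved replicates 2 and 3, at -0.28 and 0.24, and FBS replicates 2 and 3, at -0.0033 and 0.02. CXCL1, CXCL2 and CXCL3 have 50.9 to 57.1% GC, CXCL8 37.1% and IL6 46.2%. The part of GC content in these values was not tested.

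**Figure D3:**
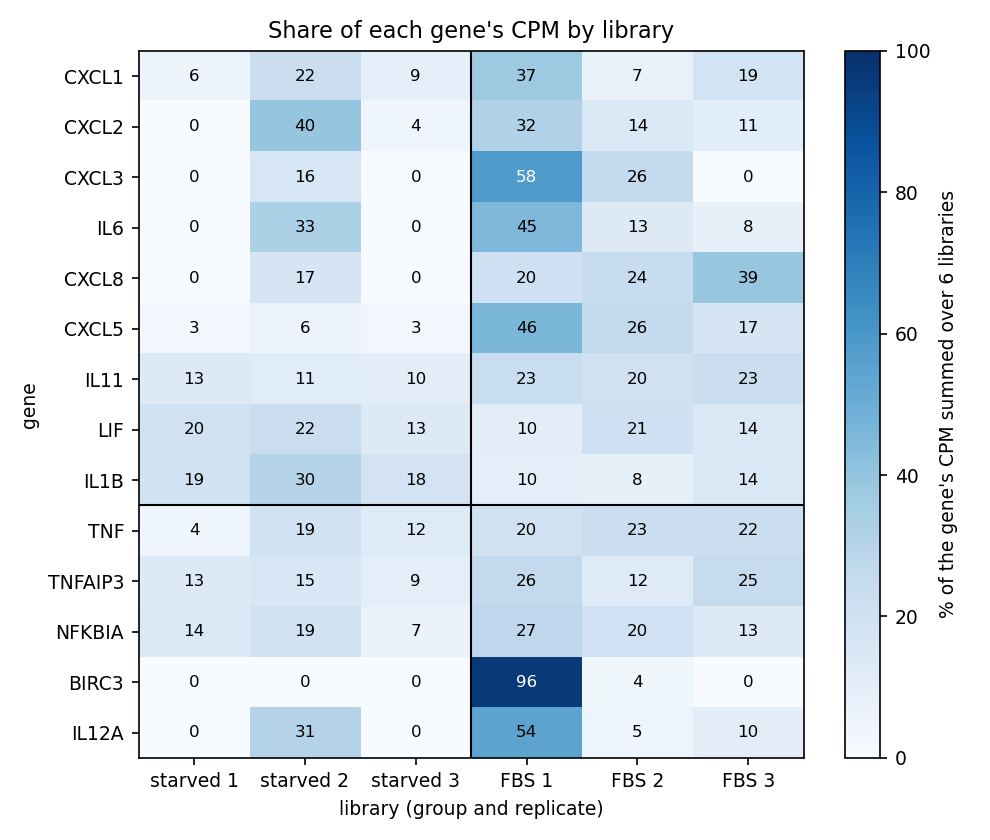
Share of each gene's CPM, summed over the 6 libraries, that each library holds (colour and number, in %); serum-starved libraries stand left of FBS libraries, and the horizontal line separates the detected genes of the 10 from 5 other genes, of which BIRC3 and IL12A were picked after their values were seen. IL6 and CXCL2 sit mostly in FBS replicate 1 and serum-starved replicate 2, while IL11 is even inside each group.

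Of 30 other chemokine genes, 21 had no count in any library and 2 were tested. These were CXCL16, a transmembrane chemokine, at 2.96 ± 2.44 CPM in serum-starved and 1.71 ± 0.568 CPM in FBS cells (SD, n = 3 each), and CCL28, a mucosal chemokine, at 1.81 ± 0.711 CPM in serum-starved and 2.80 ± 0.536 CPM in FBS cells. Neither passed (edgeR adjusted p = 0.72 and 0.741). CCL26, eotaxin-3, was below the filter with 2, 0 and 0 counts in serum-starved replicates 1 to 3 and 10, 5 and 8 in FBS replicates 1 to 3. Of 28 other inflammatory cytokine genes, 10 had no count, CSF2 among them, and 10 were tested, of which none passed. The groups did not overlap in 5 of these 10, 1 higher (CTF1) and 4 lower in serum-starved cells, against 17.7% of all genes tested, 10% higher and 7.65% lower. CTF1, which encodes the gp130 cytokine cardiotrophin-1, had 257, 154 and 144 counts in serum-starved replicates 1 to 3 and 82, 91 and 92 in FBS replicates 1 to 3 (log2 fold change 1.05, SE 0.44, edgeR adjusted p = 0.405). With 1 library left out, its log2 fold change ran from 0.53 (without serum-starved replicate 1) to 1.32 (without serum-starved replicate 3). IL23A, a subunit of interleukin-23, had 2, 6 and 0 counts in serum-starved replicates 1 to 3 and 14 in each FBS library (log2 fold change -2.39, edgeR adjusted p = 0.478). Like CXCL5, it passed the low-count filter only through its FBS libraries, so that it could enter only by being higher there. Leaving out serum-starved replicate 2 gave -3.65, and leaving out serum-starved replicate 3 gave -1.76, on the log2 scale. TNF, an inducer of NF-κB, had 5, 29 and 24 counts in serum-starved replicates 1 to 3 and 33, 32 and 29 in FBS replicates 1 to 3 (log2 fold change -0.85, edgeR adjusted p = 0.725). IL32 and IL18, picked after their values were seen, made up most of the list's summed CPM, at 103 ± 57.6 and 88.0 ± 25.9 CPM in serum-starved and 167 ± 12.7 and 94.6 ± 15.1 CPM in FBS cells. CPM is not scaled to length, so levels of different genes are not compared on it.

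The chemokine receptors CXCR1, CXCR2 and CCR2 had no count in any library, whereas receptors for the cytokines were present. Of 14 receptor genes, 7 were tested and none passed. IL11RA, the IL-11 receptor, was at 17.4 ± 10.3 CPM in serum-starved and 12.1 ± 2.08 CPM in FBS cells (SD, n = 3 each). IL6R was at 7.39 ± 3.78 and 5.65 ± 1.23 CPM, and IL6ST, the shared chain gp130, at 5.69 ± 1.58 and 9.55 ± 5.92 CPM, in serum-starved and FBS cells. LIFR and IL1R1 each had 0 counts in serum-starved replicate 1. LIFR had 29 and 45 counts in serum-starved replicates 2 and 3 and 22, 15 and 11 in FBS replicates 1 to 3, and IL1R1 had 24 and 70 and then 19, 16 and 21 counts in those libraries. The edgeR adjusted p of these 5 genes lay between 0.594 and 0.92. OSMR, the oncostatin M receptor that pairs with gp130, had 331, 558 and 997 counts in serum-starved replicates 1 to 3 and 349, 261 and 323 in FBS replicates 1 to 3. In CPM its groups did not overlap (log2 fold change 0.84, SE 0.33, edgeR adjusted p = 0.376).

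NF-κB genes gave no called change. Of 27 tested subunits, kinases and feedback genes, 12 had a fold change above 0, 15 below, and none passed (median -0.07). RELA and NFKB1, which encode the p65 and p50 subunits, had log2 fold changes of -0.10 and 0.17 (edgeR adjusted p = 0.94 and 0.89). The feedback inhibitor NFKBIA had 334, 582 and 254 counts in serum-starved replicates 1 to 3 and 893, 558 and 320 in FBS replicates 1 to 3, and TNFAIP3, or A20, had 19, 29 and 22 in serum-starved and 53, 21 and 39 in FBS replicates 1 to 3. Both overlapped between groups, with log2 fold changes of -0.60 and -0.75 (edgeR adjusted p = 0.622 and 0.726). MYD88, the adaptor of the IL-1 receptor, was at 33.8 ± 3.98 CPM in serum-starved and 19.7 ± 1.79 CPM in FBS cells without overlap (SD, n = 3 each, edgeR adjusted p = 0.358). NFKBIB, another inhibitor of NF-κB, was at 23.8 ± 10.4 and 41.0 ± 4.10 CPM in serum-starved and FBS cells without overlap, and CHUK, the kinase IKK-alpha, at 4.42 ± 1.99 and 9.06 ± 3.91 CPM (edgeR adjusted p = 0.426 and 0.447). Of 16 tested NF-κB target genes, 8 were above 0, 8 below and none passed. PTGS2 and VCAM1 had no count. IRF1 was at 23.2 ± 11.1 CPM in serum-starved and 12.3 ± 0.737 CPM in FBS cells (log2 fold change 0.92, edgeR adjusted p = 0.401). It passed without serum-starved replicate 3 (edgeR adjusted p = 0.0326), a fit in which 257 genes passed against 39 in the main fit. Without serum-starved replicate 2 its log2 fold change was 0.55 (edgeR adjusted p = 0.754). PLAU, the urokinase gene, was at 51.9 ± 32.1 and 27.6 ± 3.11 CPM in serum-starved and FBS cells (edgeR adjusted p = 0.418).

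The JAK-STAT3 list, which carries the signal of the gp130 cytokines, had 14 tested genes, 11 above 0, 3 below and none that passed. SOCS3, the feedback inhibitor that STAT3 induces, had 198, 227 and 174 counts in serum-starved replicates 1 to 3 and 555, 434 and 258 in FBS replicates 1 to 3. Its groups did not overlap in CPM, as for IL11, and its log2 fold change was -1.08 (SE 0.35, edgeR adjusted p = 0.29). SOCS1, an inhibitor of JAK kinases, differed in the other direction, with 87, 87 and 72 counts in serum-starved and 45, 41 and 27 in FBS replicates 1 to 3 (log2 fold change 1.09, SE 0.47, edgeR adjusted p = 0.429). STAT3 itself was at 87.3 ± 10.6 CPM in serum-starved and 71.5 ± 10.2 CPM in FBS cells (SD, n = 3 each, edgeR adjusted p = 0.774). Of 12 tested transcription factors of the C/EBP, AP-1 and hypoxia list, 3 were above 0, 9 below and none passed. CEBPB, a C/EBP factor at cytokine promoters, was at 111 ± 73.3 CPM in serum-starved and 120 ± 7.03 CPM in FBS cells. Its highest count, 3540, was in serum-starved replicate 2. ATF3, an AP-1 partner, had 82, 208 and 140 counts in serum-starved replicates 1 to 3 and 100, 59 and 43 in FBS replicates 1 to 3 (log2 fold change 1.02, edgeR adjusted p = 0.435).

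Regulators of mRNA decay and the inflammasome completed the lists. ZFP36L1 and ZFP36L2, which bind AU-rich elements and promote decay, were at 172 ± 32.6 and 64.7 ± 18.6 CPM in serum-starved and 92.7 ± 8.83 and 37.0 ± 3.58 CPM in FBS cells (SD, n = 3 each). Their groups did not overlap, and neither passed (log2 fold changes 0.89 and 0.81, edgeR adjusted p = 0.289 and 0.347). ZFP36, the related tristetraprolin gene, was at 5.94 ± 1.31 and 5.80 ± 0.214 CPM in serum-starved and FBS cells. None of the 11 tested genes of this list passed. Of 18 sensor and inflammasome genes, 8 were tested and none passed. Transcripts of PYCARD, the inflammasome adaptor, were not detected in any library, and CASP1, which encodes the enzyme that cuts IL-1β, had at most 5 counts. CASP4 and GSDMD were present, at 43.0 ± 6.87 and 191 ± 91.8 CPM in serum-starved and 40.4 ± 4.72 and 172 ± 15.2 CPM in FBS cells.

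**Figure D4:**
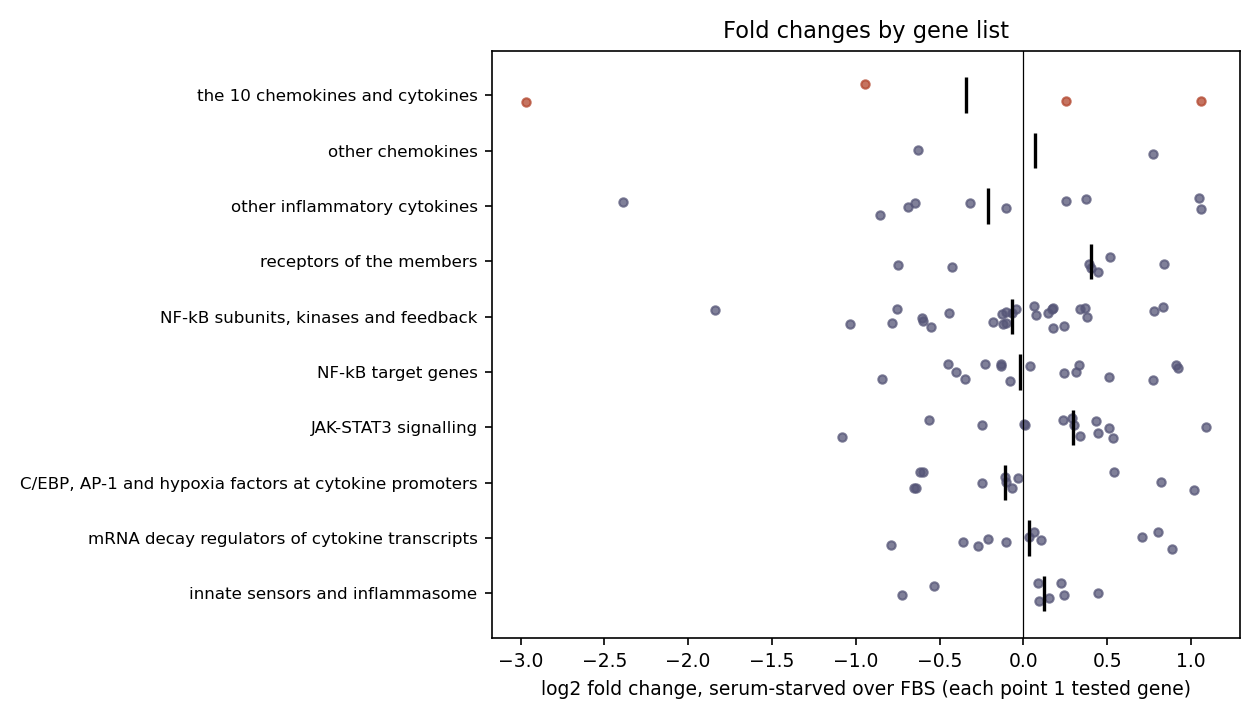
Log2 fold change (x axis, serum-starved over FBS) of each tested gene in the lists, with 1 point per gene and a vertical line at each list's median; red points are the 4 tested genes of the 10. CXCL5 lies lowest at -2.97 and IL1B at 1.06, while the medians of the NF-κB lists are -0.07 and -0.02.

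Genes whose pattern over the 6 libraries was most like that of IL11 were sought among 9240 tested genes with a mean of at least 5 CPM. Likeness was the mean absolute difference in centred log2 CPM. SNRPG, a core protein of spliceosomal snRNPs, DYNLL1, a dynein light chain, and IDH3A, a subunit of mitochondrial isocitrate dehydrogenase, came closest, at 0.10, 0.10 and 0.11 log2 units, against a median of 0.50. SNRPG was at 72.9, 75.4 and 68.5 CPM in serum-starved replicates 1 to 3 and 138, 105 and 123 CPM in FBS replicates 1 to 3, and it did not pass either (edgeR adjusted p = 0.346).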

How the data were processed

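RNA-seq libraries of serum-starved and FBS-grown Ovcar8 cells (3 each) were grouped by the treatment label. Per the labels' protocols, total RNA was cleaned by column with DNase and libraries were made with a NEBNext kit. The submitters' processing notes name GRCh38, DESeq2 and STAR 2.6.1. The counting tool and the strand setting were not given in the sources used here. Per the file headers, the authors deposited raw counts and FPKM values per gene. The counts were whole numbers, and GENCODE 29 held each of the 58735 genes at the same coordinates.

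Counts were filtered with filterByExpr (minimum count 10, minimum total 15), scaled with TMM and tested with edgeR 4.0.16 (R 4.3.3; robust glmQLFit, then glmQLFTest). P-values were adjusted by Benjamini-Hochberg over 13772 genes, with a threshold of 0.05. The members and lists were chosen with earlier results of these data known. Genes named were the 10, up to 3 called and 2 uncalled genes (unadjusted p under 0.05) per list and direction, and further genes set by name; others were picked after their values were seen. SE is the log2 fold change over the square root of F. Summed counts have exact (Clopper-Pearson) 95% binomial intervals. Alternatives were other scalings and filters, DESeq2 1.42.0, limma 3.58.1 (voom, and log2 FPKM), a replicate block, GC and length offsets (splines, 5 degrees of freedom) and each library left out. The test was checked on simulated data.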

Additional observations from a re-analysis of the deposited data

How the results depend on the processing

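Genes passing numbered 39, and 25 with total-count scaling, 127 with no filter, 160 in DESeq2, 22 and 19 in limma on log2(FPKM + 1) and log2(FPKM + 0.1), 0 without that filter, 115 with the GC and length correction, and 145 with the replicate block and that correction; the range was 4 (without FBS replicate 1) to 257 (without serum-starved replicate 3) with 1 library left out. The members called stayed at 0, except 1 (CXCL5) in DESeq2. Their median, -0.34, was 0.19 and 0.26 on log2(FPKM + 1) and log2(FPKM + 0.1), where CXCL5 falls below the FPKM filter, and -0.44 to -0.21 with 1 library left out. Deviations of log2 CPM from the group mean correlated at -0.26, 0.10 and -0.08 between same-numbered libraries, and at -0.24 to 0.26 between differently numbered ones. With 3 libraries per group, such values cannot decide whether the numbers pair the samples. The replicate block called 43 genes and none of the 10. CXCL5 and IL11 stayed below 0 and IL1B and LIF above 0 in each alternative that gave a value (16 for CXCL5, 18 for the others). Signs turned for some receptors and factors. With 1 library left out, log2 fold changes ran from -0.0879 to 0.6945 for IL6R, -0.1654 to 0.9837 for LIFR, -0.072 to 0.7657 for IL11RA, -0.6898 to 1.0347 for IL1R1, -0.3328 to 0.0858 for RELA, -0.801 to 0.1992 for CEBPB, and -0.1064 to 0.1917 for ZFP36. In voom they were -0.64 for LIFR, -0.70 for IL1R1 and -0.01 for ZFP36. With the replicate block they were -0.14 for LIFR and -0.32 for IL1R1, and with block and correction -0.14 and -0.16. The causes were not tested. Low counts limit what can be read for CXCL1, CXCL2, CXCL3, CXCL8 and IL6, which had at most 28 counts in a library, and for CCL2, which had none.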
